A study of Drosophila melanogaster with 9 samples.

Results

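The nuclear genes of oxidative phosphorylation were taken as the probe sets whose single gene symbol starts with ND-, UQCR-, COX and a digit, ATPsyn or Sdh. The array table gave 73 such genes, from 81 probe sets, out of 11982 genes with a symbol of their own. They comprised 32 genes of complex I, 7 of complex II, 6 of complex III, 14 of complex IV and 14 of complex V. By their names, 51 were subunits, 21 were paralogs that carry the name of a subunit followed by L, and 1, *Sdhaf3*, was an assembly factor of complex II. The choice went by name. The only measured value in it was that, for the 6 genes with several probe sets, the brightest by its average on the 9 arrays was kept. Of the 88 nuclear genes whose RefSeq symbols start this way, 15 were not analysed here, among them *ND-49*, *ND-30*, *ND-23*, *SdhA*, *UQCR-C1* and *UQCR-C2*, which code for core subunits.

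The respiratory chain sits in the inner mitochondrial membrane. Complex I takes electrons from NADH and complex II takes them from succinate. Complex III passes them from ubiquinol to cytochrome c, and complex IV passes them to oxygen. Complexes I, III and IV pump protons, and complex V, the ATP synthase, uses the proton gradient to make ATP. Complex II is entirely nuclear-encoded, whereas the other complexes combine nuclear subunits with subunits encoded by mitochondrial DNA, which were not analysed here. In *Drosophila*, many duplicates of nuclear mitochondrial genes are known to be expressed mainly in the testis.

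The arrays comprised 3 groups of 3. BG3 cells, an established male line, derive from larval central nervous tissue. Ph RNAi BG3 cells received 10 µg per well of double-stranded RNA (dsRNA) against sequence shared by *ph-p* and *ph-d*, which encode the PRC1 subunit Polyhomeotic, and RNA was taken at 5 days. Wing discs came from *yw* larvae of both sexes, late in the third instar, with 12 to 15 discs per replicate. Mock RNAi BG3 cells carried no dsRNA according to the labels, so that an effect of dsRNA as such and an effect of Ph loss cannot be told apart. The *ph-p* and *ph-d* transcripts were not analysed here, so the depletion has no check in these values. The question put to the members was which of them differed after Ph RNAi and where they stood in cultured cells and in the disc.

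Values are log2 expression values, and the arrays of 1 group correlated at r = 0.99 or more over all probe sets. The median of a BG3 array lay between 2.21 and 2.23 and that of a wing disc array between 0.827 and 0.842, so the disc was set against the cells only by the percentile of a gene among the 11982 genes of its own array, where 100 is the brightest. In both tissues the levels formed a dim and a bright group, with the low point between them at 4.09 in BG3 and 2.88 in the disc. A member whose mean over the 6 BG3 arrays, or over the 3 disc arrays, lies above that point is called bright there and one below it dim. The markers of wing disc, 5 of 6 measured, were bright in the disc, and neuronal markers were mostly dim in BG3, with *elav* bright and 1 of 6 bright in Ph RNAi against 2 of 6 in Mock RNAi. The muscle list (3 measured) and the testis list (8 measured) had every gene dim in the 3 groups. Of 7 glial markers measured, 4 were called higher in Ph RNAi, with *repo* at a log2 change of 7.10, while *wrapper* had -0.89 and was not called. The summed level of the list was 13.50 to 13.72 in Ph RNAi, against 11.97 to 12.42 in Mock RNAi. Of 6 wing disc markers, 3 were called higher (*dpp* at 4.45, *nub* at 3.09 and *Dll* at 1.72), and the list summed to 6.72 to 8.10 in Ph RNAi, against 4.54 to 4.71 in Mock RNAi. Of 6 hemocyte markers, 1 was called higher (*He* at 3.19), and the list summed to 9.90 to 10.87 in Ph RNAi, against 10.41 to 11.33 in Mock RNAi. The part of these lists in the values of the members was not tested. The fat body list had 3 measured genes, and its summed level reached a log2 value of 9.48 on the highest wing disc array and 3.16 on the lowest. Over all 11982 genes, limma called 384 higher and 188 lower in Ph RNAi than in Mock RNAi at an adjusted p under 0.05, which is 4.77% of genes, and the median log2 change was -0.03.

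The members fell into a bright majority and a dim minority, and the same 51 were bright in BG3 and in the disc. These were 49 of the 51 subunits, *Sdhaf3* and 1 paralog, *ATPsynepsilonL*. The 22 dim members were the other 20 paralogs and the complex I subunits *ND-B8* and *ND-B12*. The bright members had a median percentile of 97.0 in Ph RNAi, 93.7 in wing disc and 97.4 in Mock RNAi, and the dim members of 23.5, 27.3 and 23.4 in the same order. The brightest member was *ND-MLRQ* on every one of the 9 arrays, with log2 values of 14.27, 14.18 and 14.04 in Ph RNAi, 11.61, 11.59 and 11.64 in wing disc and 14.19, 13.95 and 14.002 in Mock RNAi. *ND-MLRQ* is counted with complex I by its symbol, although its human counterpart is now assigned to complex IV.

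**Figure D1:**
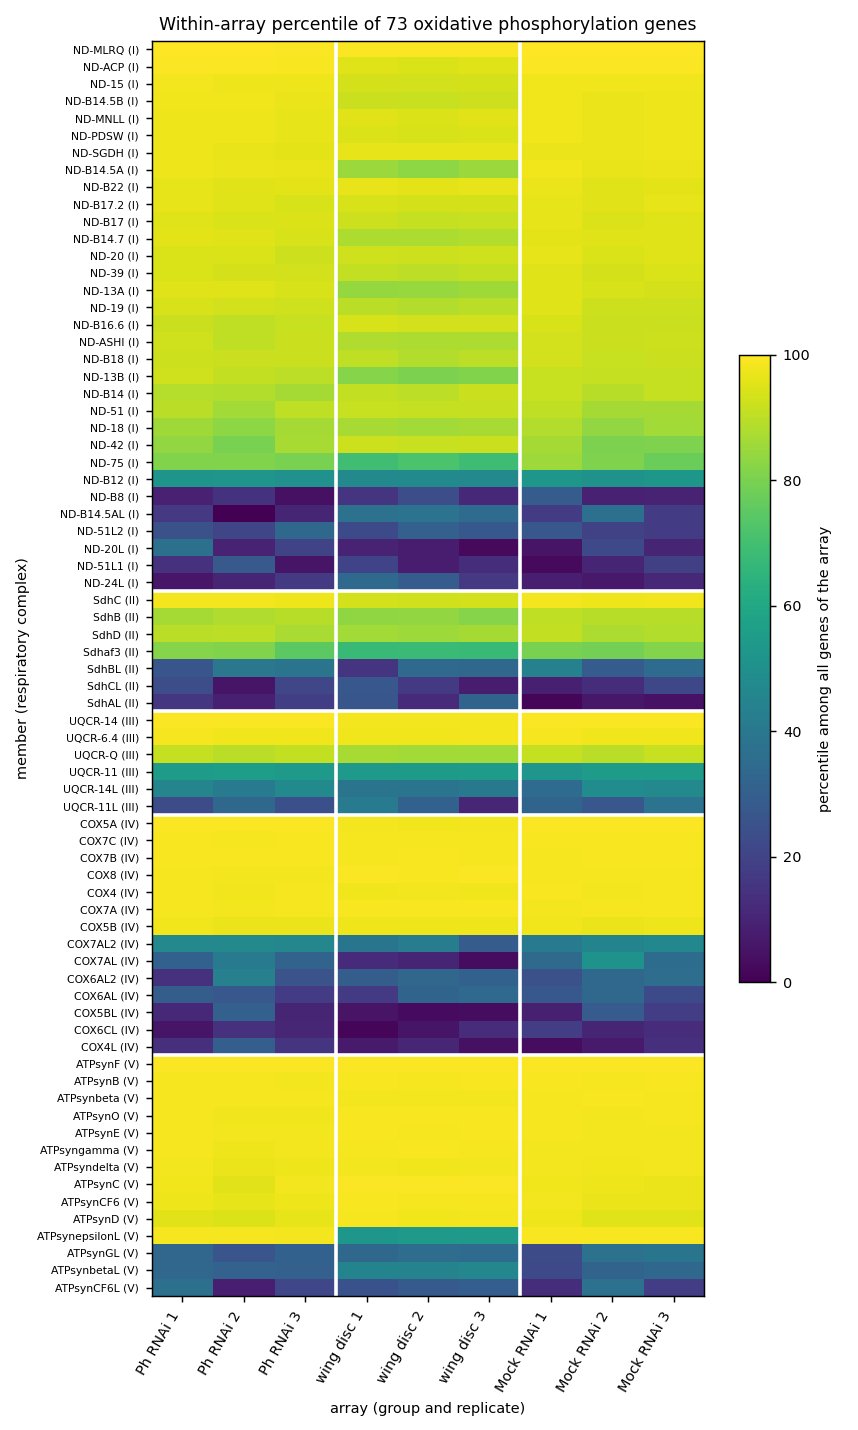
Colour gives the percentile of each of the 73 members (rows, by complex) among the 11982 genes of each of the 9 arrays (columns: Ph RNAi, wing disc and Mock RNAi, replicates 1 to 3). The 51 bright members run from 53.4 to 99.6 in the disc and from 54.1 to 99.6 in Mock RNAi, and *ATPsynepsilonL* is the row that is bright in BG3 and near the middle in the disc.

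The complexes occupied different heights. The 10 subunits of complex V had mean log2 values from 11.47 to 13.82 in Ph RNAi, 10.08 to 11.37 in wing disc and 11.63 to 13.87 in Mock RNAi. Their median percentile was 98.1 in Ph RNAi, 98.8 in the disc and 98.4 in Mock RNAi. The 7 subunits of complex IV, the terminal oxidase, lay at medians of 98.6, 98.7 and 98.6 in that order. The 27 subunits of complex I were more spread, with medians of 93.6, 91.3 and 94.4. The 3 of complex II had medians of 89.0, 85.9 and 89.6. The 4 of complex III had medians of 94.3, 92.2 and 94.5, and their lowest, *UQCR-11*, lay at 54.7, 54.4 and 54.1. Each of these subunits of complexes IV and V ranked above percentile 95 in the 3 groups by its mean, whereas the bright subunits of complex I reached down to 80.7 in Ph RNAi, 69.9 in wing disc and 81.2 in Mock RNAi. In each group the lowest of them was *ND-75*, an iron-sulfur subunit of the NADH-oxidizing tip. Each percentile comes from hybridization to different probes, so heights of different genes describe the arrays and are not a measured ratio of subunits.

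No member was called after Ph RNAi. Of the 73, limma gave 0 higher and 0 lower at an adjusted p under 0.05, where 4.77% of all genes and 7.65% of the genes that were bright in BG3 were called (2.84% of the bright genes as lower). The smallest adjusted p of a member was 0.25. At an unadjusted p under 0.05 there were 3 members, against 16.5% of all genes and 24.2% of bright genes. The log2 changes of members ran from -0.46 to 0.37, with a median of -0.06. The median over all bright genes was -0.10. The 95% intervals of 72 members lay within a change of 1 on the log2 scale in either direction, and *UQCR-11* was the exception with an upper bound of 1.14. These intervals bound the change of each transcript under the spread of 3 arrays a group, and they do not show that levels were the same. The 3 arrays of Ph RNAi lay entirely above those of Mock RNAi for 3 members and entirely below for 4, where 9.91% and 13.6% of all genes and 12.1% and 20.7% of bright genes did so. Together these were 23.5% of all genes.

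**Figure D2:**
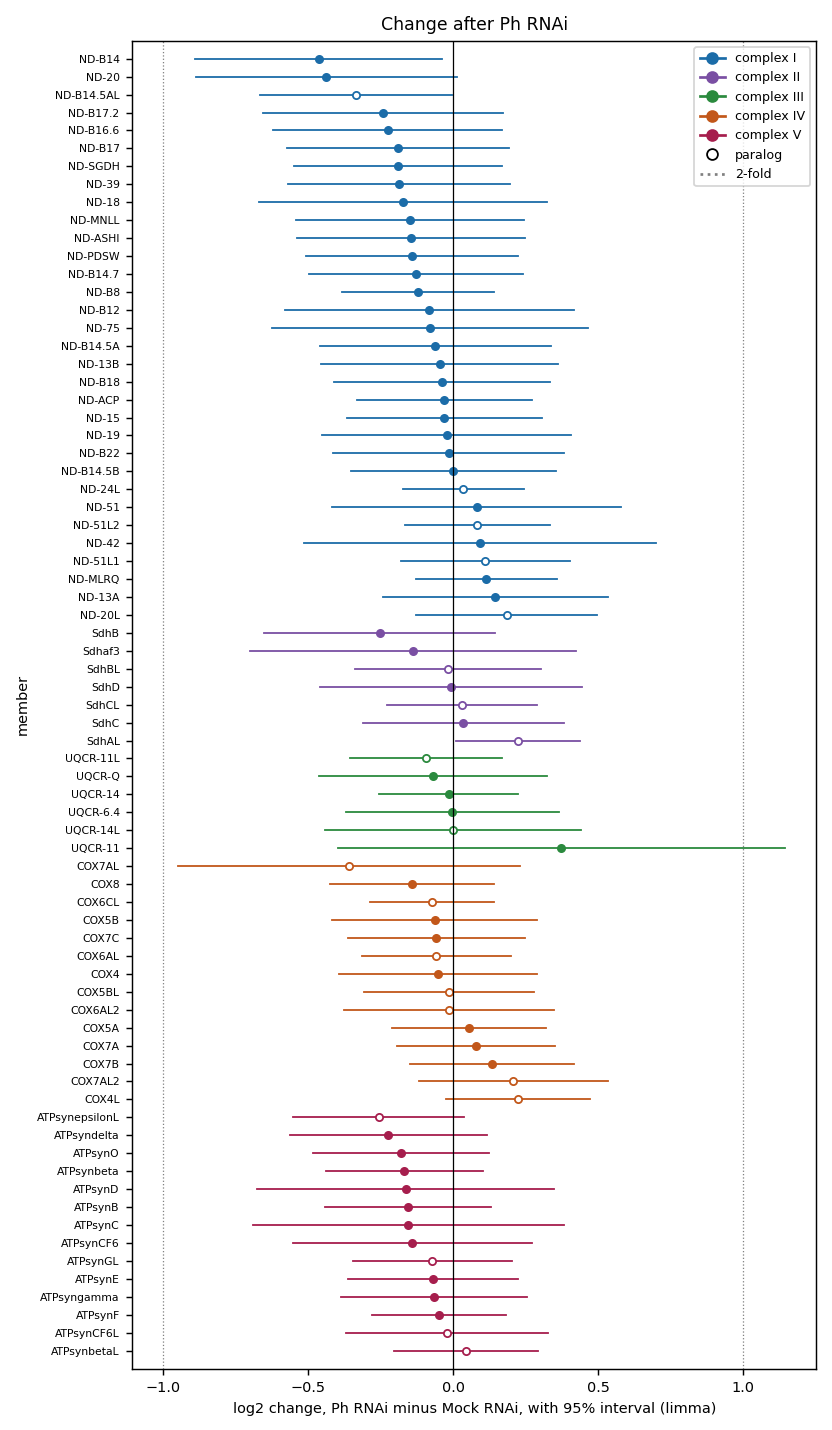
Each row is a member, and the point and line give its log2 change, Ph RNAi minus Mock RNAi, with limma's 95% interval (open points are paralogs). All points lie between -0.46 and 0.37, and only the interval of *UQCR-11* crosses the dotted line at 1.

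Complex I held the largest falls by value. *ND-B14*, an accessory subunit of the LYR family in the matrix arm, had log2 values of 10.07, 10.03 and 9.72 in Ph RNAi, against 10.56, 10.16 and 10.49 in Mock RNAi. Its 3 Ph RNAi arrays lay below all 3 Mock RNAi arrays, and its log2 change was -0.46 ± 0.19 (limma SE, n = 3 each, adjusted p = 0.25). *ND-20*, an iron-sulfur subunit close to the ubiquinone site, had 11.08, 11.12 and 10.61 in Ph RNAi, against 11.69, 11.11 and 11.31 in Mock RNAi. Its arrays overlapped, with a change of -0.44 ± 0.20 (adjusted p = 0.32). At the other end stood *ND-20L*, the paralog of *ND-20*, with 2.12, 1.63 and 1.81 in Ph RNAi, against 1.53, 1.85 and 1.63 in Mock RNAi, all of them dim, and a change of 0.18 ± 0.14 (adjusted p = 0.58). Of the 27 subunits, 22 had a negative fitted change and 5 a positive one. Their median was -0.08, against -0.10 over all bright genes. Leaving out Ph RNAi replicate 1 gave a median of -0.17, and leaving out replicate 3 gave -0.025. Without Mock RNAi replicates 1, 2 and 3 in turn it was -0.021, -0.17 and -0.13. The matrix arm, which holds the NADH and iron-sulfur sites, and the membrane arm, which pumps protons, had medians of -0.13 each over their 10 and 13 bright subunits.

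In complex II, *SdhB*, the iron-sulfur subunit, gave the lowest change. It had 9.76, 10.02 and 10.05 in Ph RNAi, against 10.33, 10.12 and 10.15 in Mock RNAi, without overlap, and a log2 change of -0.25 ± 0.18 (adjusted p = 0.54). The membrane anchors *SdhC* and *SdhD* had changes of 0.03 ± 0.16 and -0.01 ± 0.20. The median of the 3 subunits was -0.01, and it ranged from -0.11 without Mock RNAi replicate 2 to 0.13 without Ph RNAi replicate 3. *SdhAL*, a paralog of the flavoprotein subunit, had the highest change of the complex but was dim throughout, with 1.74, 1.62 and 1.78 in Ph RNAi, against 1.38, 1.57 and 1.52 in Mock RNAi (0.22 ± 0.10, adjusted p = 0.27). The assembly factor *Sdhaf3* had 9.16, 9.06 and 8.34 in Ph RNAi, against 8.95, 8.86 and 9.17 in Mock RNAi. Ph RNAi replicate 3 alone was low for this gene (-0.14 ± 0.26, adjusted p = 0.85).

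Of the 4 subunits of complex III, 3 had changes between -0.07 and 0.00 on the log2 scale. The remaining one, *UQCR-11*, the hinge protein, was the weakest bright member in BG3, and its value in Mock RNAi rested on 1 array. It had 4.50, 4.53 and 4.19 in Ph RNAi, against 3.22, 4.50 and 4.38 in Mock RNAi, where the first array stood apart. Its change was 0.37 ± 0.35 (adjusted p = 0.67) and -0.03 without Mock RNAi replicate 1. The median of the 4 subunits was -0.01, and it ranged from -0.093 without Ph RNAi replicate 1 to 0.081 without replicate 3. *UQCR-11L*, with the lowest change of the complex, was dim at 1.85, 2.05 and 1.87 in Ph RNAi, against 2.01, 1.93 and 2.12 in Mock RNAi (-0.09 ± 0.12, adjusted p = 0.77).

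Complex IV subunits had small changes. Their 7 log2 changes ran from -0.14 (*COX8*) to 0.13 (*COX7B*), both small membrane subunits, with a median of -0.05, and 0 of 7 had arrays that did not overlap. Leaving out Ph RNAi replicates 1, 2 and 3 in turn gave medians of -0.15, 0.045 and 0.043. Dropping Mock RNAi replicate 1 gave 0.045, and dropping its replicate 2 gave -0.12. The extremes of the complex were dim paralogs. *COX4L* had 1.71, 1.98 and 1.72 in Ph RNAi, against 1.46, 1.59 and 1.69 in Mock RNAi, without overlap (0.22 ± 0.11, adjusted p = 0.36). *COX7AL* had 1.99, 2.24 and 2.00 in Ph RNAi, against 2.06, 3.19 and 2.06 in Mock RNAi, where the second array stood apart (-0.36 ± 0.27, adjusted p = 0.56). Its change was 0.02 without Mock RNAi replicate 2.

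The 10 subunits of complex V all had negative fitted changes, from -0.22 to -0.05, with a median of -0.16. Dropping Ph RNAi replicate 2 gave a median of -0.066. Dropping Mock RNAi replicate 1 or 2 gave -0.10 or -0.21. None had arrays that did not overlap, and the smallest adjusted p was 0.52. The median of all bright genes was -0.10. *ATPsynbeta*, the catalytic subunit of the F1 head, had 12.75, 12.79 and 12.67 in Ph RNAi, against 12.76, 13.00 and 12.96 in Mock RNAi (-0.17 ± 0.12, adjusted p = 0.55). A further bright probe set of *ATPsynbeta*, fitted by limma with every named probe set as a row of its own, averaged 12.65 in Ph RNAi and 12.97 in Mock RNAi, a change of -0.32 ± 0.12 (adjusted p = 0.22). *ATPsynC*, which forms the proton-carrying ring, had 12.27, 11.42 and 12.46 in Ph RNAi, against 12.43, 12.10 and 12.07 in Mock RNAi, and its SD of 0.55 in Ph RNAi was the highest of the bright members there. The largest fall of the complex by value was that of *ATPsynepsilonL*, described with the paralogs.

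The bright members shared deviations between arrays of 1 group that were about as large as the changes above. In Mock RNAi, 39 of the 51 were highest on replicate 1, where 43.1% of all bright genes were, and 43 of the 51 were lowest on replicate 2, where 34.1% of bright genes were. In Ph RNAi, 35 were highest on replicate 1 and 33 were lowest on replicate 3, against 30.6% and 40.3% of bright genes. The median deviation of the 51 members from their group means was 0.14, -0.01 and -0.12 on Ph RNAi replicates 1, 2 and 3, and 0.16, -0.13 and -0.02 on the Mock RNAi replicates. The same medians over all 5559 bright genes lay between -0.04 and 0.04. The wing disc arrays were tighter, with members' medians of 0.05, -0.06 and 0.01. The 3′ minus 5′ signal of the array's actin control was 2.03, 2.06 and 1.38 in Ph RNAi and 2.03, 2.26 and 1.73 in Mock RNAi, and its part in these deviations was not tested.

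**Figure D3:**
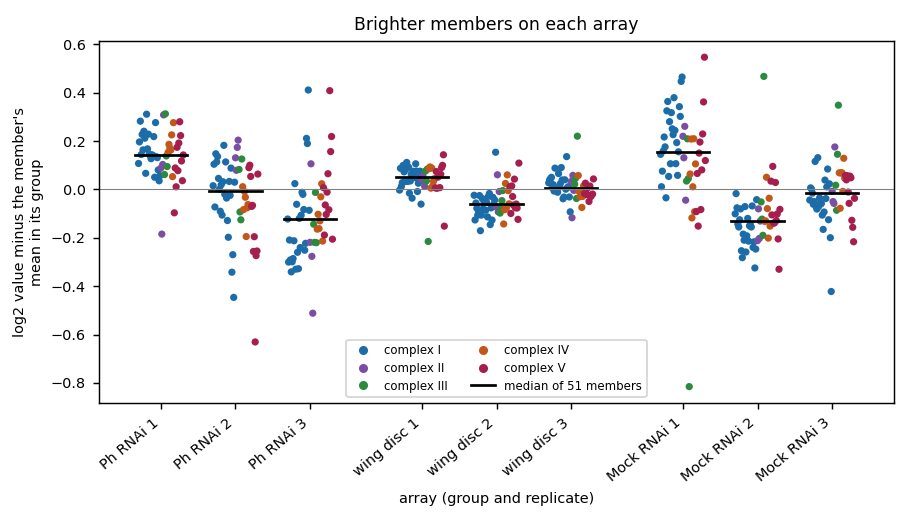
Points are the 51 bright members, each as its log2 value minus its own mean in the group, for the 9 arrays, with a line at the median. Ph RNAi replicate 1 and Mock RNAi replicate 1 sit high (medians of 0.14 and 0.16), and the wing disc arrays stay within 0.06 of 0 by median.

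Set against Mock RNAi cells by percentile, the disc placed complexes I and II lower and complex V slightly higher. These comparisons carry no test, since the disc and cell arrays had different medians and may have been scaled apart. The disc also differs from the cell line in tissue, genotype, sex and culture at once. Of the 73 members, 33 had all 3 disc percentiles below all 3 of Mock RNAi, and 13 had them above. Over all genes, 32.9% were lower and 29.2% higher in this sense. Among the 51 bright members, the counts were 30 lower and 10 higher, and among the 5106 genes bright in both tissues 45.5% were lower and 37.7% higher. The median difference in percentile, wing disc minus Mock RNAi, was -3.02 for the bright subunits of complex I, -4.74 for complex II, -0.73 for complex III, -0.10 for complex IV and 0.43 for complex V, and -0.65 over all genes bright in both tissues. In Mock RNAi, the genes bright in both tissues had a median percentile of 78.1. The bright subunits of complex I had 95.2 and those of complex II 89.6, so these medians compare genes of unlike height. A gene near percentile 99 has little room to move up, which bounds the differences of complexes IV and V. In bulk RNA, fewer cells of a type and less RNA per cell cannot be told apart.

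Of the 25 bright subunits of complex I, 19 were lower in the disc without overlap and 2 were higher. Of the genes bright in both tissues, 45.5% were lower and 37.7% higher in this sense. *ND-B14.5A*, an accessory subunit, had percentiles of 84.9, 82.9 and 85.2 in wing disc, against 97.9, 96.5 and 97.0 in Mock RNAi, a difference of -12.8. The same direction held, among genes chosen after their values were seen, for *ND-75* (a mean of 69.9 in wing disc, against 81.2 in Mock RNAi), *ND-13B* (81.1 in wing disc, against 91.3) and *ND-13A* (84.7 in wing disc, against 94.2). *ND-42* and *ND-51* went the other way. *ND-42*, an accessory subunit of the membrane arm, had 92.5, 91.7 and 91.9 in wing disc, against 86.5, 80.4 and 80.7 in Mock RNAi. *ND-51*, the flavin-binding subunit that accepts electrons from NADH, had 91.5, 91.2 and 91.3 in wing disc, against 90.3, 86.4 and 86.6 in Mock RNAi. *ND-51* and *ND-75*, which belong to the same tip of the complex, thus averaged 91.3 and 69.9 in the disc, against 87.8 and 81.2 in Mock RNAi.

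The acyl carrier protein *ND-ACP* was measured by 3 probe sets, and each of them ranked lower in the disc. Their mean percentiles among the probe sets with a single symbol were 94.1, 95.3 and 95.2 in wing disc, against 99.1, 99.4 and 99.3 in Mock RNAi. The 2 probe sets of *ND-B17* likewise had 87.3 and 92.5 in the disc, against 94.7 and 95.9 in Mock RNAi. In contrast, *COX7B* and *COX7C* each had a probe set that was dim in every group, with log2 means of 2.12 and 2.10 in Ph RNAi, 0.76 and 0.63 in wing disc and 2.32 and 2.10 in Mock RNAi, beside bright ones above 10. The brighter probe set stood for the gene.

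All 3 measured subunits of complex II were lower in the disc without overlap, against 45.5% of the genes bright in both tissues. *SdhB* had 83.3, 83.7 and 81.9 in wing disc, against 90.5, 89.1 and 89.1 in Mock RNAi. *SdhC* had 93.4, 92.8 and 93.3 in wing disc, against 98.3, 97.5 and 97.9 in Mock RNAi. The assembly factor *Sdhaf3* had 67.9, 68.0 and 67.8 in wing disc, against 80.0, 79.2 and 81.5 in Mock RNAi, a difference of -12.3.

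In complex V, 6 of 10 subunits were higher in the disc without overlap and 1, *ATPsynbeta*, was lower. Among genes bright in both tissues, 37.7% were higher and 45.5% lower in this sense. Both of the largest rises of the complex, noted after the values were seen, were in the membrane ring and the stator. *ATPsynC* had percentiles of 99.5, 99.5 and 99.5 in wing disc, against 98.0, 97.3 and 97.2 in Mock RNAi. *ATPsynD*, of the stator, had 98.5, 98.0 and 98.2 in wing disc, against 97.5, 95.1 and 95.2 in Mock RNAi. Ranked only among the 73 members, where 1 is the brightest, *ATPsynC* averaged place 2.33 in the disc and 22.7 in Mock RNAi, and the 10 subunits of the complex had a median place of 8.67 in the disc and 15.2 in Mock RNAi. In complex IV, 2 of 7 subunits were higher and 3 lower, which is near those shares, with differences from -1.20 (*COX5A*) to 0.64 (*COX8*).

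**Figure D4:**
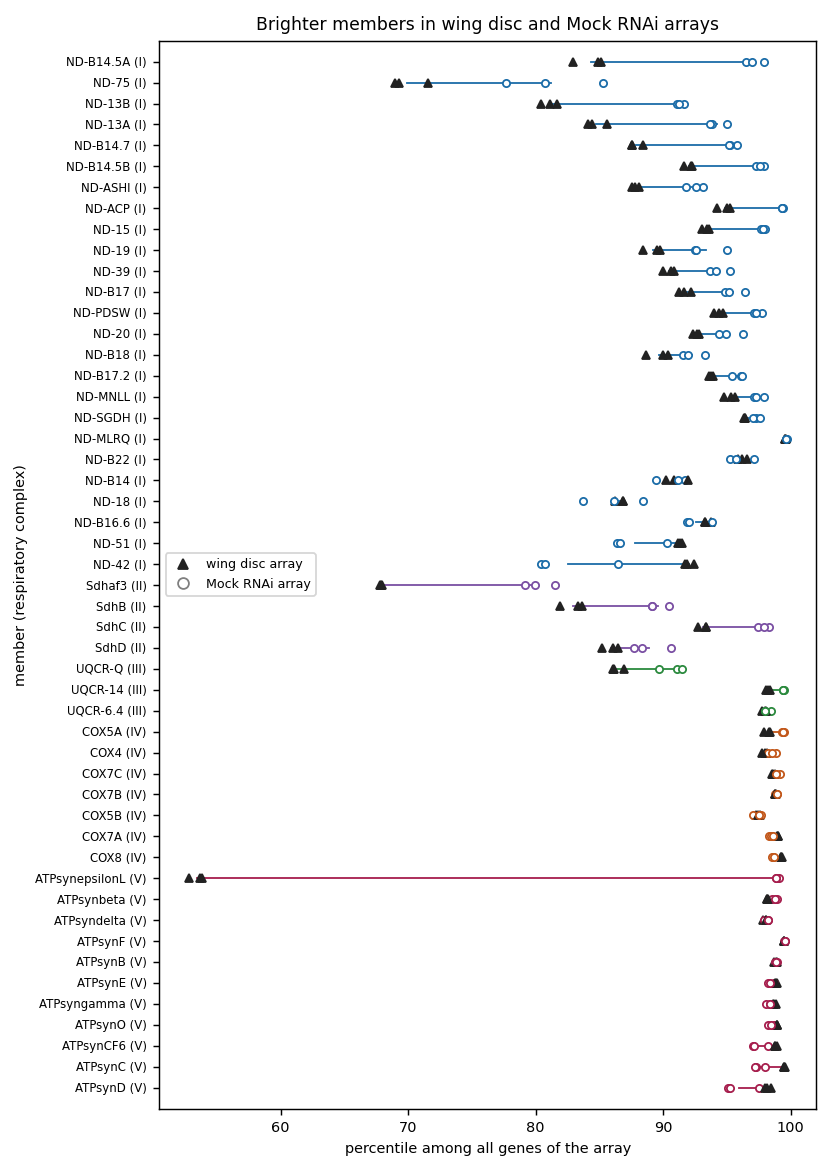
Rows are the bright members except *UQCR-11*, by complex, with the percentile on each wing disc array (triangles) and each Mock RNAi array (circles), and a line joining the 2 means. Complexes I and II lie mostly to the left in the disc, complexes IV and V stay near 98 in both, and *ATPsynepsilonL* has the widest gap, at 53.4 and 98.9.

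The wing disc arrays differed in fat body markers. *Lsp2* had log2 values of 8.71, 5.68 and 2.34, and *Fbp1* had 7.42, 3.04 and 0.79 on disc replicates 1, 2 and 3. Without disc replicate 1, the members lower and higher than Mock RNAi without overlap numbered 33 and 14. Over all genes, 35.4% were then lower and 31.1% higher, since 2 arrays overlap less easily with 3 than 3 do. No bright member's difference shifted by more than 0.38 percentile points. The 3′ minus 5′ signal of the eIF-4a control was 5.80, 4.85 and 6.95 in wing disc, against 2.76, 3.45 and 2.88 in Mock RNAi, and that of actin was 3.20 ± 0.12 against 2.01 ± 0.26 (SD, n = 3 each). The part of this difference in the ranks of members was not tested.

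The paralogs were dim almost without exception. In 20 of the 21, log2 values lay between 1.24 and 2.66 over the Ph RNAi arrays, between 0.28 and 1.32 over the wing disc arrays and between 1.38 and 3.19 over the Mock RNAi arrays. The subunits they are named after were bright where they were measured, except *sun*, which was dim in BG3. *UQCR-11* was bright by its mean over BG3, although its Mock RNAi mean of 4.03 lay just under the boundary. *COX4L* averaged 1.81 ± 0.15 in Ph RNAi, 0.39 ± 0.05 in wing disc and 1.58 ± 0.11 in Mock RNAi (SD, n = 3 each), whereas *COX4*, the regulatory subunit, averaged 12.69 ± 0.21, 10.06 ± 0.07 and 12.75 ± 0.21. *ATPsynbetaL* averaged 2.01 ± 0.02, 1.19 ± 0.11 and 1.96 ± 0.09 in the same order, whereas *ATPsynbeta* averaged 12.74, 10.16 and 12.91. These are values of different probe sets, and they say that each paralog lay in the dim group and its namesake in the bright one. The 8 testis markers measured, among them *aly*, *can* and *Mst87F*, were dim on average in each group as well.

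Of the 20 dim paralogs, 10 had positive and 10 negative fitted changes after Ph RNAi, and 0 were called. *ND-B14.5AL* had 1.75, 1.24 and 1.64 in Ph RNAi, against 1.77, 2.12 and 1.76 in Mock RNAi, without overlap (-0.34 ± 0.15, adjusted p = 0.29). *COX7AL2* had 2.61, 2.60 and 2.55 in Ph RNAi, against 2.23, 2.42 and 2.48 in Mock RNAi, without overlap (0.21 ± 0.15, adjusted p = 0.54). The others, *ND-24L*, *ND-51L1*, *ND-51L2*, *SdhBL*, *SdhCL*, *UQCR-14L*, *COX5BL*, *COX6AL*, *COX6AL2*, *COX6CL*, *ATPsynbetaL*, *ATPsynCF6L* and *ATPsynGL*, had changes between -0.07 and 0.11. *COX5B* and *COX5BL* lie close together in the RefSeq annotation with 1 protein-coding gene starting between them, and *COX7A* and *COX7AL* with 2. In both pairs 1 gene was bright and its neighbour dim on every array.

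By percentile, dim paralogs gave some of the largest differences between disc and cells. *SdhAL* had 26.6, 12.4 and 32.1 in wing disc, against 1.79, 6.53 and 4.96 in Mock RNAi. *ND-24L* had 34.1, 29.2 and 16.4 in wing disc, against 8.49, 6.94 and 11.4 in Mock RNAi. *ATPsynbetaL* had 45.0, 44.7 and 46.4 in wing disc, against 22.2, 32.0 and 33.3 in Mock RNAi. These 3 were the largest rises of any member. *COX7AL* had 12.2, 10.2 and 3.47 in wing disc, against 34.5, 50.9 and 35.5 in Mock RNAi, and *COX5BL* had 5.46, 3.00 and 3.15 against 8.67, 28.7 and 18.1. In the dim group a large step in rank is a small step in signal, since the log2 means of these 5 genes spanned only 0.33 to 1.19 in wing disc and 1.49 to 2.44 in Mock RNAi.

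*ATPsynepsilonL*, named after the epsilon subunit of the F1 stalk, was the one paralog that was bright, and it was bright in BG3 to a degree that the disc lacked. It had log2 values of 12.93, 12.85 and 12.58 in Ph RNAi, 3.26, 3.52 and 3.45 in wing disc and 13.17, 12.96 and 13.01 in Mock RNAi. Its percentiles were 98.8, 98.6 and 98.3 in Ph RNAi, 52.8, 53.8 and 53.7 in wing disc and 99.1, 98.9 and 98.9 in Mock RNAi. The difference of -45.5 percentile points between wing disc and Mock RNAi was the largest fall of the 73 members, and its average place among them was 51 in the disc and 7.33 in Mock RNAi. After Ph RNAi, all 3 arrays were below those of Mock RNAi, with a change of -0.26 ± 0.13 (adjusted p = 0.37). *sun*, which encodes the epsilon subunit itself, lay below the boundary in BG3 and above it in the disc, at 3.97, 3.69 and 3.71 in Ph RNAi, 3.50, 3.71 and 3.49 in wing disc and 3.56, 3.90 and 4.08 in Mock RNAi. Its percentile averaged 52.7, 53.9 and 53.4 in that order. *ATPsynepsilonL* and *sun* thus lay within 1 percentile point of each other in the disc, whereas they averaged 98.9 and 53.4 in Mock RNAi, as read by their own probe sets.

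**Figure D5:**
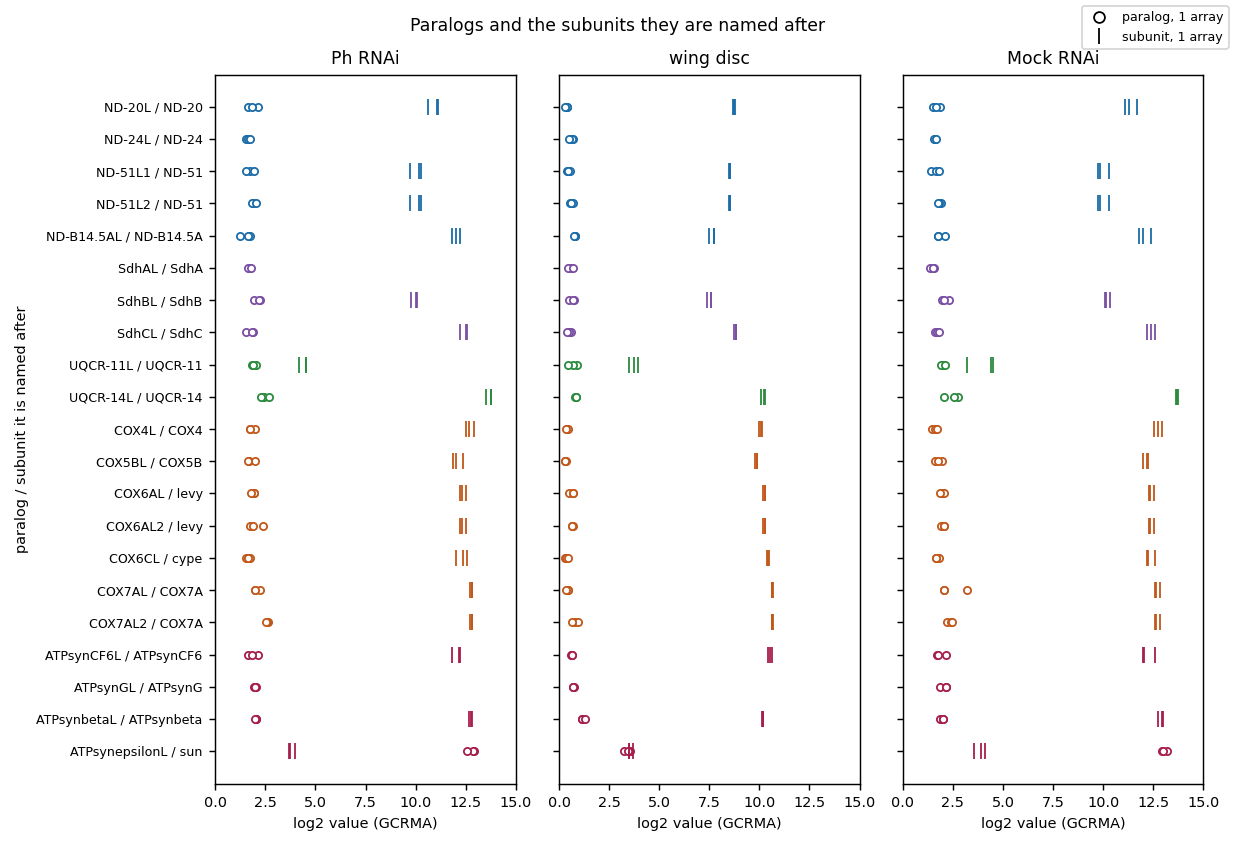
Each row pairs a paralog (circles, 1 per array) with the subunit it is named after (bars, 1 per array, absent where that subunit was not analysed), on the log2 scale in Ph RNAi, wing disc and Mock RNAi. The pair *ATPsynepsilonL* and *sun* is the only one in which the paralog is the brighter in BG3, at 12.79 against 3.79 in Ph RNAi and 13.05 against 3.85 in Mock RNAi.

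No gene of the pathway lists with a name outside the prefixes was called after Ph RNAi, where 4.77% of all genes were called. In lists of 7 to 10 measured genes, a count of 0 lies close to that share. Subunits with other symbols (*RFeSP*, *Cyt-c1* and *ox* of complex III, *cype* and *levy* of complex IV, *blw* and *sun* of complex V) gave 0 of 7 called, with changes from -0.13 to 0.11. In the disc, *blw*, the alpha subunit of the F1 head, had a mean percentile of 99.3, against 96.0 in Mock RNAi. The complex IV subunits *cype* (98.6 in wing disc, against 97.8) and *levy* (98.4, against 97.9) were higher as well, all without overlap. *Cyt-c1*, the cytochrome c1 of complex III, had 94.6 against 97.7 and *ox* 95.9 against 98.7, both lower without overlap. The arrays of *RFeSP* and *sun* overlapped. Assembly factors of the complexes gave 0 of 7 called, and their median change was -0.32. The largest fall among them was that of *Bcs1*, a chaperone that inserts the iron-sulfur protein into complex III, at -0.83 ± 0.30 (adjusted p = 0.18). Pyruvate dehydrogenase and the citric acid cycle gave 0 of 9 called. There *Ogdh*, a subunit of the 2-oxoglutarate dehydrogenase complex, had 1.23 ± 0.32 (adjusted p = 0.058), and *ScsbetaG*, of succinyl-CoA synthetase, had -0.67 ± 0.20 (adjusted p = 0.09). The carriers, which include the ADP/ATP exchanger *sesB*, gave 0 of 10 called, with changes from -0.68 to 0.12. The regulators of mitochondrial DNA and respiration, which include *TFAM*, gave 0 of 10, with changes from -0.91 to 0.10 and a median of -0.39. At an unadjusted p under 0.05, the limma fit had 2 of 7 assembly factors and 2 of 9 genes of the dehydrogenase and cycle list. It also had 1 of 10 carriers and 3 of 10 regulators there, against 16.5% of all genes and 24.2% of bright genes.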

How the data were processed

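Expression was measured in 9 samples on Affymetrix Drosophila Genome 2.0 arrays from 200 ng of total RNA. The deposited log2 values were made by the authors with GCRMA, per the labels' processing notes, with no version given. GCRMA squeezes weak signals towards a floor. Of 18952 rows, 183 array controls and 1 blank row were left out, and 13647 of 18768 probe sets had a single symbol in the platform annotation, giving 11982 genes. Ph RNAi and Mock RNAi (n = 3 each) were compared with limma 3.58.1 in R 4.3.3 (lmFit and eBayes with a variance trend, two-sided, Benjamini-Hochberg over 11982 genes). SE and 95% intervals are limma's. The fit was tested on simulated data. The titles call replicates biological and say no more, so the p-values rest on the spread among these arrays alone. Members and gene lists were chosen with earlier results of these data known. The rule for named members took those called, the extremes of each complex, paralogs with the subunits they are named after, and the 5 largest percentile rises and falls in the disc without overlap. Outside it, *ND-75*, *ND-13A*, *ND-13B*, *ND-ACP*, *ND-B17*, *ND-MLRQ*, *ND-B8*, *ND-B12*, *SdhD*, *COX5A*, *COX7B*, *COX7C*, *COX8*, *ATPsynC* and *ATPsynD*, and the genes of other lists, were named after their values were seen. Alternatives covered variance model, scaling, filter, probe set and left-out arrays. Wing disc was compared by rank only, with no test. Depth is not defined for arrays, and the 3 arrays a group limit the precision. Gene roles are textbook background.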

Additional observations from a re-analysis of the deposited data

How the results depend on the processing

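No member was called under any of the 15 alternatives to the comparison of Ph RNAi with Mock RNAi, and their smallest adjusted p ranged from 0.0502, with each BG3 array centred on its median, to 0.378. That centring moved the medians of the subunits to -0.27 in complex I, -0.19 in complexes II and III, -0.24 in complex IV and -0.34 in complex V, and the genes called lower over all genes to 507, of 188. The median change was then -0.21 over all genes and -0.24 over the members. Leaving out 1 array moved the genes called lower to between 88 (without Mock RNAi replicate 3) and 158. Without Mock RNAi replicate 2 they numbered 99. Leaving out Ph RNAi replicate 3 gave 118.

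The centring moves every gene by the same step, so the signs it turns are set by the scaling. With it, the change was -0.10 for *ND-51*, -0.089 for *ND-42*, -0.15 for *ND-24L*, -0.073 for *ND-51L1*, -0.10 for *ND-51L2*, -0.15 for *SdhC*, -0.15 for *SdhCL*, -0.18 for *UQCR-14L*, -0.10 for *COX7A* and -0.14 for *ATPsynbetaL*. With quantile normalization it was -0.013 for *UQCR-14L*. Leaving out 1 array turned signs of uncalled changes as well. The change then ranged from -0.028 to 0.25 for *ND-51*, -0.19 to 0.10 for *ND-B14.5A*, -0.11 to 0.32 for *ND-42*, -0.016 to 0.084 for *ND-24L*, -0.071 to 0.14 for *SdhC*, -0.094 to 0.085 for *SdhBL*, -0.027 to 0.13 for *SdhCL* and -0.29 to 0.12 for *Sdhaf3*. It ranged from -0.058 to 0.056 for *UQCR-14*, -0.035 to 0.61 for *UQCR-11* and -0.19 to 0.16 for *UQCR-14L*. In complex IV it ranged from -0.16 to 0.053 for *COX4*, -0.20 to 0.043 for *COX5B*, -0.13 to 0.073 for *COX5BL*, -0.11 to 0.0020 for *COX6AL*, -0.20 to 0.12 for *COX6AL2* and -0.55 to 0.016 for *COX7AL*. In complex V it ranged from -0.24 to 0.040 for *ATPsynCF6*, -0.0095 to 0.073 for *ATPsynbetaL* and -0.15 to 0.11 for *ATPsynCF6L*.

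Whether equal replicate numbers pair the samples cannot be told from 3 arrays a group. Deviations of equal numbers correlated at 0.23, 0.21 and -0.24 over bright genes, and those of unequal numbers at -0.35 to 0.24. With the replicate block, 503 genes were called higher and 263 lower over all genes, against 384 and 188 without it. For the members the block gave 0 called, and their smallest adjusted p was 0.27. In the disc comparison, the counts without overlap changed by less than 1.5 times under every alternative. The median of complex IV was -0.51 with the mean of all probe sets, where *COX7B* and *COX7C* include a dim one, and that of complex V was 0.59 against Ph RNAi arrays in place of Mock RNAi. The percentile difference of *ATPsynepsilonL* was -34.5 when ranked over all 18768 probe sets.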
